A study of Bos taurus with 86 samples.

Results

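ACLY, LSS and FDPS are enzymes that feed and run the synthesis of fatty acids and sterols. They were taken as the array rows whose single gene symbol in the platform annotation is one of these names. This gave 3 genes of the 3433 named genes that were measured, and 8 rows of the 16416 in the table. ACLY (gene identifier 511135) had 4 rows from 2 clones, and LSS (615906) and FDPS (281156) had 2 rows each from 1 clone, spotted in duplicate. All 8 rows passed the filter on missing values. Duplicate spots of a clone correlated over embryos at r = 0.936 and 0.988 for ACLY, 0.986 for LSS and 0.975 for FDPS.

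Single cattle embryos (Bos taurus) were hybridised against a common reference RNA on 2-colour cDNA arrays, each embryo on 2 arrays with the dyes exchanged. The labels place 14 embryos in AI, 14 in IVD and 15 in IVF, with no further treatment, breed, age or stage given in the sources used here. The abbreviations were taken to mean artificial insemination (AI) and in vitro fertilization (IVF); the labels do not spell out IVD, which serves here as a group name. Its title names the question: what maturation, fertilization and culture outside the animal do to gene expression in single embryos. RNA was amplified linearly, in 3 rounds for embryos and 2 for the reference. The 4 IVD embryos numbered 12_1 to 12_4 may or may not have a common origin, which the labels do not state.

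ATP citrate lyase (ACLY) splits citrate in the cytosol and so supplies the acetyl-CoA from which both fatty acids and cholesterol are built. Farnesyl diphosphate synthase (FDPS) makes farnesyl diphosphate, the branch point from which sterols, ubiquinone, dolichol and the prenyl tails of proteins are drawn. Lanosterol synthase (LSS) closes the ring of squalene epoxide and makes the first sterol of the pathway. Transcription of all these enzymes is driven by the sterol regulatory element-binding proteins (SREBPs), which INSIG proteins hold back in the endoplasmic reticulum when sterols are plentiful. Cattle oocytes and early embryos are rich in stored lipid.

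Values are log2 ratios of embryo over reference, averaged over the 2 arrays of an embryo. Each array was centred so that the median ratio of the rows with a value on every array is 0. The deposited ratio was taken as Cy5 over Cy3, which is likely and not stated; before turning, the 2 arrays were anticorrelated in 43 of 43 embryos. On this scale 13 of 15 measured trophectoderm markers were above 0 (median 2.19), as were 2 of 2 inner cell mass markers (0.97). The measured markers of blood and immune cells had a median of -1.63 (0 of 2 above 0), those of cumulus and granulosa cells -0.17 (1 of 4) and those of oviduct and endometrium -2.12 (0 of 2). The make-up of the reference is not known, so these values do not settle the direction. Were the ratio Cy3 over Cy5, all log2 ratios and differences given here would be reversed in sign, and correlations would not change. A ratio to the reference gives each gene its own scale, so levels are compared between embryos and not between genes. In a whole embryo, fewer cells of a type and less RNA per cell cannot be told apart.

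Arrays of IVD embryos had 1001.5 to 1871.5 rows without a value per embryo, where AI embryos had 3613 to 5713 and IVF embryos 3076.5 to 5099.5. Turned to the same direction, the 2 arrays of an embryo correlated at 0.589 to 0.767 in IVD embryos, while AI embryos reached 0.816 to 0.912 and IVF embryos 0.717 to 0.911. The ranges of rows without a value did not overlap between IVD and the other groups, so for comparisons with IVD the group and the handling of its arrays cannot be told apart.

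IVF embryos had the highest mean ratio of all 3 enzymes. LSS and ACLY were higher in IVF than in AI embryos by 2.15-fold and 1.43-fold, and all 3 were higher in IVF than in IVD embryos, LSS by 3.00-fold and FDPS by 2.79-fold. IVD embryos had the lowest mean of LSS and FDPS, and FDPS was 2.09-fold lower in IVD than in AI embryos. As measured by their clones, the enzymes moved by unequal amounts between some of the groups, as tested within embryos further on.

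Beside these counts stand the shares called over the whole array. Between IVF and AI, 2 of 3 enzymes were called, where limma called 37.7% of all 6278 features (19.9% higher in IVF). Between IVD and AI it called 1 of 3 enzymes and 46.5% of all features, 21% as lower in IVD. Between IVF and IVD it called 3 of 3 as higher in IVF and 47.6% of all features, 22.3% in that direction and 25.2% in the other. The median difference of all features was 0.04, 0.06 and -0.01 in the same order. IVF minus AI and IVD minus AI share the AI embryos, so the pairs of values are not independent.

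**Figure D1:**
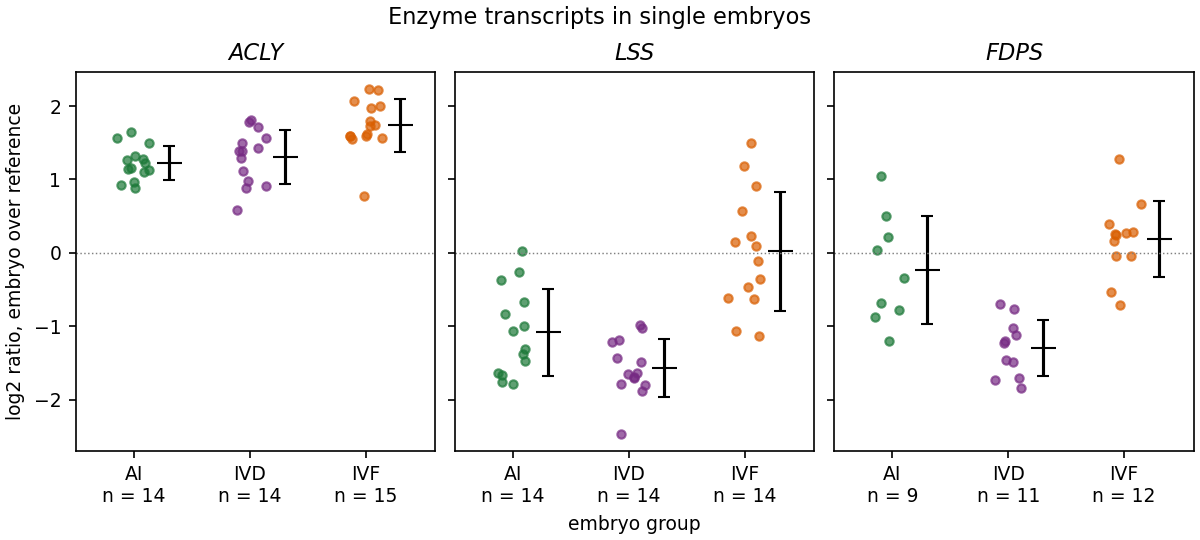
Log2 ratio of embryo over reference (vertical axis) for ACLY, LSS and FDPS in AI, IVD and IVF embryos. Each point is 1 embryo (mean of its 2 arrays) and the bar is the group mean ± SD. The dotted line at 0 is the median ratio of the rows with a value on every array. IVF embryos of LSS spread from -1.14 to 1.50, and all plotted IVD embryos of LSS and FDPS lie below 0.

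ACLY, the supplier of acetyl-CoA, lay above 0, the median ratio of the rows with a value on every array, in all 43 embryos. It ran from 0.88 through a median of 1.19 to 1.65 in AI, from 0.58 through 1.39 to 1.81 in IVD and from 0.78 through 1.73 to 2.23 in IVF. Of 15 IVF embryos, 8 lay above the highest AI embryo and 1, embryo 12, lay below the lowest, so the groups overlapped. Group means were 1.22 ± 0.23 (SD, n = 14) in AI, 1.31 ± 0.37 (n = 14) in IVD and 1.74 ± 0.36 (n = 15) in IVF.

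ACLY rose in IVF over AI by 0.51 ± 0.12 (SE, 95% interval 0.27 to 0.76, limma adjusted p = 0.00103). It was higher in IVF than in IVD by 0.43 ± 0.12 (0.18 to 0.67, limma adjusted p = 0.00392), with 5 of 15 IVF embryos above the highest IVD embryo. IVD and AI differed by 0.09 ± 0.12 (-0.16 to 0.34, limma adjusted p = 0.58). In the order AI, IVD, IVF, no difference was therefore called between the first 2 neighbours, where the clones had opposite signs. The call between IVF and IVD was lost without centring (0.18, adjusted p = 0.468), where the median of all features was itself -0.27, and with Cy5 arrays alone (0.23, adjusted p = 0.141).

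The clones of ACLY gave different sizes of change. Clone 1 had means of 1.27 ± 0.25 in AI, 1.16 ± 0.39 in IVD and 1.57 ± 0.36 in IVF. Clone 2 had 1.17 ± 0.31, 1.47 ± 0.36 and 1.90 ± 0.39. Within groups the clones correlated at r = 0.748 over 43 embryos. IVF over AI was 0.30 ± 0.13 with clone 1 (limma adjusted p = 0.0583) and 0.73 ± 0.13 with clone 2 (limma adjusted p = 3.11e-05). IVD minus AI was -0.11 ± 0.13 with clone 1 and 0.30 ± 0.13 with clone 2 (limma adjusted p = 0.495 and 0.0637).

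The gap between the clones was tested within embryos. Clone 2 minus clone 1 was 0.43 larger in IVF than in AI (permutation p = 0.00025, 0.000435 adjusted over the 3 contrasts) and 0.41 larger in IVD than in AI (permutation p = 0.00029, adjusted p = 0.000435). It differed by 0.02 between IVF and IVD (permutation p = 0.802, adjusted p = 0.802). Both clones called IVF above IVD (0.41 and 0.43, limma adjusted p = 0.00693 and 0.00656). The rise over AI was thus called from clone 2 and from the mean of the rows, and not from clone 1.

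**Figure D2:**
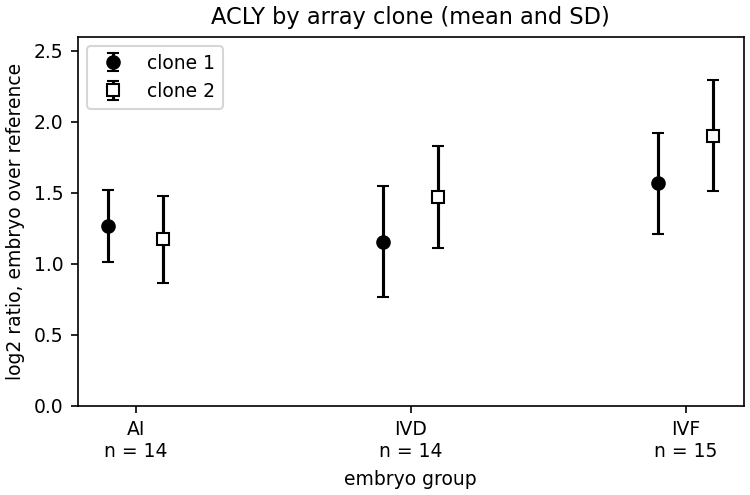
Mean log2 ratio of embryo over reference ± SD (vertical axis) of each ACLY clone in AI, IVD and IVF embryos (filled circles, clone 1; open squares, clone 2). Clone 2 minus clone 1 is -0.09 in AI, and clone 2 is higher by 0.32 in IVD and 0.34 in IVF.

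FDPS, the enzyme of the isoprenoid branch point, had a value on both arrays in 32 of 43 embryos: 9 of 14 AI, 11 of 14 IVD and 12 of 15 IVF. It ran from -1.21 through a median of -0.34 to 1.04 in AI, from -1.84 through -1.22 to -0.69 in IVD and from -0.71 through 0.25 to 1.28 in IVF. All 11 IVD embryos with both arrays were below 0, 6 of them below the lowest AI embryo, and 11 of 12 IVF embryos were above the highest IVD embryo. Means were -0.23 ± 0.73 (SD, n = 9) in AI, -1.30 ± 0.38 (n = 11) in IVD and 0.18 ± 0.51 (n = 12) in IVF.

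The remaining 11 embryos had FDPS on 1 array only, 7 with the embryo in Cy3 and 4 with it in Cy5. They include the lowest readings of the gene, -3.19 in IVD embryo 10 and -2.63 in AI embryo H5, both in Cy3, and the highest, 1.55 in IVF embryo 16, in Cy5. These readings are not in the means. FDPS also read differently by dye in AI, with a mean of -0.69 in Cy3 (n = 12) and 0.14 in Cy5 (n = 11); in IVF the means were -0.13 and 0.51, and in IVD -1.50 and -1.21.

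FDPS fell in IVD against AI by 1.06 ± 0.24 on the log2 scale (SE, 95% interval -1.55 to -0.58, limma adjusted p = 0.000464). The difference was -0.65 without centring (adjusted p = 0.0262), where the median of all features was 0.32. It was higher in IVF than in IVD by 1.48 ± 0.22 (1.03 to 1.93, limma adjusted p = 1.3e-06). IVF and AI, the neighbours at the top of the order, differed by 0.42 ± 0.23 (-0.06 to 0.89, limma adjusted p = 0.156). That last difference passed the threshold without AI embryo 17 (0.58, adjusted p = 0.0372), the highest AI embryo.

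LSS, which makes the first sterol, had the widest spread in IVF embryos. It ran from -1.78 through a median of -1.19 to 0.03 in AI, from -2.46 through -1.65 to -0.98 in IVD and from -1.14 through -0.01 to 1.50 in IVF, where embryo 19 lacked a value on 1 array. Of 14 IVF embryos, 7 lay above the highest AI embryo and 12 above the highest IVD embryo. Embryos 11 (1.50), 1 (1.19) and 9 (0.91) were the highest IVF embryos, and embryos 2 (-1.14) and 12 (-1.07) lay within the range of AI. Means were -1.08 ± 0.59 (SD, n = 14) in AI, -1.57 ± 0.39 (n = 14) in IVD and 0.02 ± 0.81 (n = 14) in IVF.

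LSS rose in IVF over AI by 1.10 ± 0.23 (SE, 95% interval 0.65 to 1.56, limma adjusted p = 0.000183) and over IVD by 1.59 ± 0.23 (1.13 to 2.04, limma adjusted p = 1.96e-07). IVD minus AI was -0.48 ± 0.23 (-0.94 to -0.03, limma adjusted p = 0.0751), and 4 of 14 IVD embryos lay under the whole AI range. That difference passed the threshold after quantile normalization (-0.56, adjusted p = 0.0397), with Cy5 arrays alone (-0.62, adjusted p = 0.034) and in a fit of AI and IVD alone (-0.48, adjusted p = 0.0289). It was -0.23 without centring (adjusted p = 0.444). Both dyes gave the same order of groups, with means of -1.11, -1.45 and 0.14 in Cy3 and -1.07, -1.69 and -0.11 in Cy5 for AI, IVD and IVF.

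**Figure D3:**
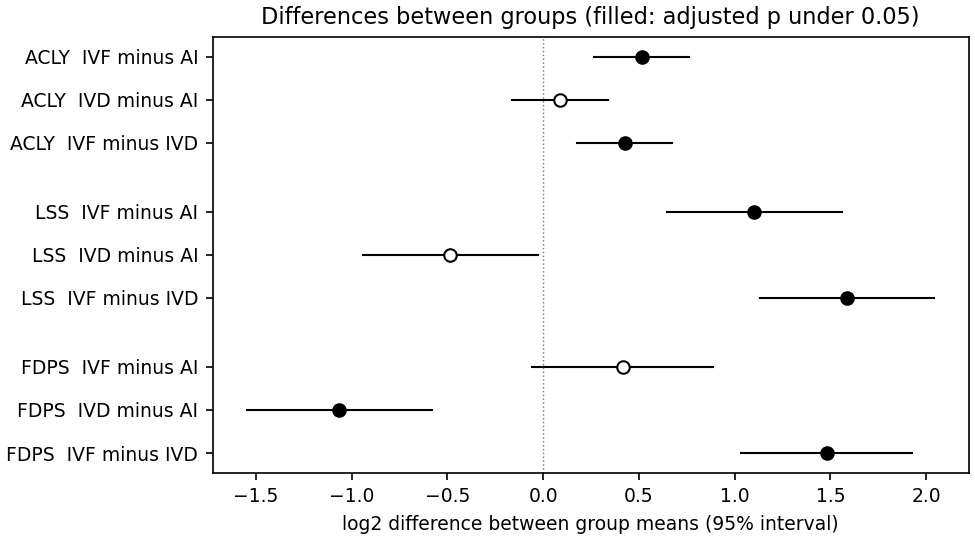
Difference between group means on the log2 scale (horizontal axis) with its 95% interval for each enzyme and pair of groups, from limma. Filled points have an adjusted p under 0.05: all 3 enzymes between IVF and IVD, ACLY and LSS between IVF and AI, and FDPS between IVD and AI.

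Whether the enzymes moved by the same amount was tested on their difference within each embryo, which centring of whole arrays does not alter. LSS minus FDPS averaged -1.01 ± 0.34 (SD) in 9 AI, -0.24 ± 0.41 in 11 IVD and -0.12 ± 0.80 in 12 IVF embryos. The gap therefore narrowed by 0.88 from AI to IVF (exact permutation p = 0.00658, 0.0119 adjusted over 9 tests) and by 0.77 from AI to IVD (exact permutation p = 0.000304, adjusted p = 0.00137). LSS thus gained on FDPS in IVF, and FDPS lost more than LSS in IVD. Between IVF and IVD the gap differed by 0.11 (permutation p = 0.677, adjusted p = 0.762), so no unequal change of the sterol enzymes was detected there.

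ACLY moved less than the sterol enzymes between IVF and IVD: ACLY minus LSS differed by -1.20 in IVF (permutation p = 4e-05, adjusted p = 0.00036) and ACLY minus FDPS by -1.03 (permutation p = 0.00049, adjusted p = 0.00147). From AI to IVD, ACLY gained 1.11 on FDPS (exact permutation p = 0.000839, adjusted p = 0.00189). It gained 0.57 on LSS (permutation p = 0.0134, adjusted p = 0.02), which missed the threshold in Cy3 alone (0.36, adjusted p = 0.104) and with IVD embryos 12_1 to 12_4 averaged (0.50, adjusted p = 0.0549). From AI to IVF, LSS gained on ACLY, with ACLY minus LSS changing by -0.62 (permutation p = 0.0156, adjusted p = 0.02; Cy5 alone -0.57, adjusted p = 0.0653). ACLY and FDPS did not differ detectably in their change from AI to IVF (0.08, exact permutation p = 0.777, adjusted p = 0.777). ACLY is here the mean of 2 clones, whose own change from AI differed by 0.43 in IVF and 0.41 in IVD. Between IVF and IVD the clones differed by 0.02. The unequal changes were not tested by clone, and LSS and FDPS have 1 clone each. Against AI, a difference between clones and a difference between genes therefore cannot be told apart.

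Pooled over the groups, the sterol enzymes varied together over embryos, but this call depended on the embryos kept and on the dye. After the group means were removed, LSS and FDPS correlated at r = 0.518 (Spearman's rho 0.545) over 32 embryos, with a permutation p of 0.00336 and 0.00249 (0.0202 and 0.0299 adjusted over 12 relations). Without the 2 embryos farthest from the median of LSS, r was 0.473 and the call was lost (permutation adjusted p = 0.0805). The same removal gave 0.357 without centring and 0.461 with quantile normalization (permutation adjusted p = 0.157 and 0.0905). With centring on all measured rows it gave 0.510, which passed (permutation adjusted p = 0.0464). With LSS from the Cy3 array and FDPS from the Cy5 array of an embryo r was 0.331 (adjusted p = 0.175), and with the dyes the other way it was 0.567 (adjusted p = 0.00396).

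Within single groups, between which no difference of r was tested, the values depended on the dye. In 9 AI embryos r was 0.895 and rho 0.85 (exact permutation p = 0.00177 and 0.00607, adjusted p = 0.0202 and 0.0364). Without the 2 farthest embryos r was 0.891 and the call was lost (adjusted p = 0.0805). It was also lost across dyes, at 0.722 with LSS in Cy3 and FDPS in Cy5 (adjusted p = 0.132) and at 0.569 the other way (adjusted p = 0.173). AI embryos 14 and 17 were high in both genes, and H1 was low in both. In 11 IVD embryos r was 0.294 (rho 0.191, permutation p = 0.373 and 0.575, adjusted p = 0.684 and 0.766) and in 12 IVF embryos 0.395 (rho 0.385, permutation p = 0.204 and 0.217, adjusted p = 0.489 and 0.52). Without the 2 farthest embryos these fell to 0.0506 and 0.0922. With LSS in Cy5 and FDPS in Cy3, r was 0.696 in IVD (adjusted p = 0.0475) and 0.538 in IVF (adjusted p = 0.173), so that AI was not the highest group there.

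ACLY did not vary detectably with either sterol enzyme. Group-centred r was 0.259 with LSS over 42 embryos (rho 0.231, permutation p = 0.102 and 0.133, adjusted p = 0.307 and 0.4). It was 0.0525 with FDPS over 32 (rho 0.00587, permutation p = 0.766 and 0.976, adjusted p = 0.766 and 0.976). With all embryos kept, the largest value within a group was 0.52 for ACLY with LSS in 14 IVF embryos (rho 0.547, permutation p = 0.0534 and 0.0473, adjusted p = 0.214 and 0.189). Without the 2 embryos farthest from the median of ACLY, r with FDPS went from 0.145 to 0.747 in AI and from 0.107 to 0.608 in IVF. Neither was called (permutation adjusted p = 0.204 each). In IVD r with FDPS went from -0.107 to -0.395, and group-centred it was 0.0446. Values within groups thus depended on few embryos. Without centring of the arrays, r of ACLY with LSS was 0.431 (adjusted p = 0.0406).

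**Figure D4:**
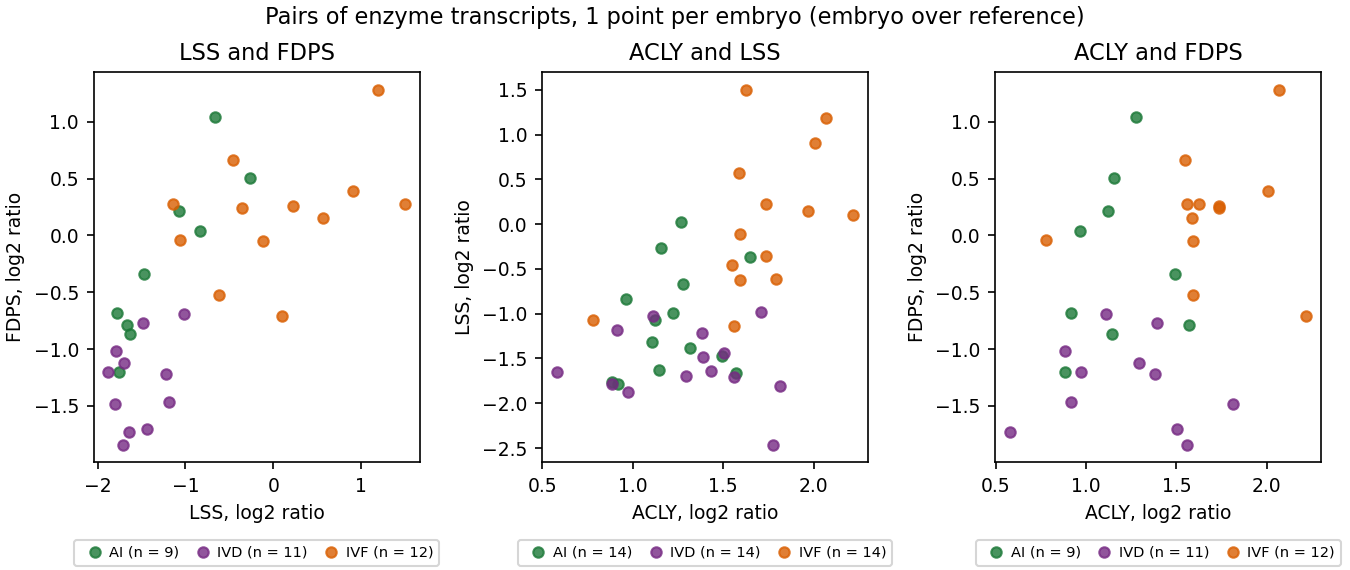
Log2 ratio of embryo over reference of 1 enzyme against another, 1 point per embryo, coloured by group; the panels show LSS with FDPS, ACLY with LSS, and ACLY with FDPS. The 9 AI embryos of the first panel lie along a rising line, while the other panels show no common slope within groups.

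Among genes measured in every embryo in which a given enzyme was measured, those most like it over embryos were listed by Pearson's r of group-centred values, as a description. LSS ranked 26 of 2635 genes by likeness to FDPS, where the median gene had r = 0.00707 and the 95th percentile was 0.378. ACLY ranked 1116 of 2635 for FDPS and 246 of 2391 for LSS. The genes most like FDPS over 32 embryos were HDAC3 (a histone deacetylase, 0.657), GADD45A (a stress-induced growth arrest gene, 0.624), CMTM4 (0.615), TINF2 (a telomere protein, 0.61) and DDX54 (an RNA helicase, 0.607), and the most opposed were WNT4 (a secreted signal, -0.622), RFWD3 (a ubiquitin ligase, -0.601) and MOSPD1 (-0.601).

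For LSS over 42 embryos they were KIAA1522 (0.569), GADD45A (0.561), OSGEP (0.535), CIZ1 (0.528) and FAM241B (0.521), opposed by ANXA5 (annexin A5, -0.621), DMTF1 (-0.569) and OGFOD1 (-0.557). For ACLY over 43 embryos they were CSNK1G2 (a casein kinase, 0.553), EZR (ezrin, 0.515), IER3 (0.501), DKK3 (0.487) and PANK2 (pantothenate kinase, the entry to coenzyme A synthesis, 0.485), opposed by RPA3 (-0.588), RPL30 (a ribosomal protein, -0.536) and ASF1A (a histone chaperone, -0.528). GADD45A was the single gene shared by the 5 highest of LSS and of FDPS, and ACLY shared none with either. With rows without a value and the dye-swap correlation of an embryo as covariates, r of LSS with FDPS was 0.561 (permutation p = 0.0008, 0.0024 adjusted over 3 relations).

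Other measured genes of the sterol pathway did not all have the direction of LSS. Of 24 sterol synthesis genes listed, 8 were on the array and 7 were measured, LSS and FDPS included. Between IVF and AI, 2 were higher in IVF (LSS and MSMO1), 1 was lower (EBP) and 4 were not called, with a median difference of 0.33. Over all features, limma called 37.7% there, which is near the share of these 7 genes. MSMO1, the methyl sterol oxidase that works after LSS, was higher by 0.80 ± 0.33 (limma adjusted p = 0.0497), and the call was lost without centring and with centring on all rows (adjusted p = 0.0698 and 0.0532). Its means were 0.30 ± 1.42 (SD, n = 14) in AI, 0.61 ± 0.51 (n = 14) in IVD and 1.10 ± 0.58 (n = 15) in IVF.

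EBP, the sterol isomerase near the end of the pathway, was lower in IVF than in AI, where LSS was higher, and had the sign of LSS in the other comparisons. Its means were 1.47 ± 0.55 (SD, n = 12) in AI, 0.30 ± 0.23 (n = 11) in IVD and 0.50 ± 0.72 (n = 13) in IVF. It differed from AI by -0.97 ± 0.21 in IVF (limma adjusted p = 0.000561) and by -1.17 ± 0.22 in IVD (limma adjusted p = 5.58e-05), lower in both. Between IVD and AI, FDPS and EBP were lower, 5 genes were not called and none was higher; the median was -0.48. Between IVF and IVD, LSS, FDPS and NSDHL were higher, 4 were not called and none was lower; the median was 0.50. NSDHL, the sterol dehydrogenase of the demethylation steps, was higher by 0.72 ± 0.26 (limma adjusted p = 0.0212; 0.48 and adjusted p = 0.161 without centring). LBR, which can act as a sterol reductase, and ACAT2, which condenses acetyl-CoA at the pathway's start, were called in no comparison, with differences of -0.49 to 0.50 and -0.08 to -0.04. Over all features, limma called 46.5% in IVD against AI and 47.6% in IVF against IVD. The counts of sterol genes called lay under or near these shares.

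Genes of fatty acid synthesis and activation were called in both directions. Over all features, limma called 37.7% in IVF against AI, 46.5% in IVD against AI and 47.6% in IVF against IVD. The list was chosen with results of these data known and has no test as a list. Of 32 listed, 9 were on the array and 7 measured. In IVF against AI, 5 were higher (ACLY, ACSL5, ELOVL1, HACD1 and HACD2), ACSL6 was lower and ACSL1 was not called; the median was 0.47. ACSL5, which activates fatty acids, went from 0.47 to 0.15 with quantile normalization (adjusted p = 0.41), and ACSL6 lost its call without centring (adjusted p = 0.0531). HACD1 and HACD2, dehydratases of fatty acid elongation, were higher by 0.99 ± 0.26 and 0.78 ± 0.18 (limma adjusted p = 0.00224 and 0.00102), and also in IVD over AI by 1.43 ± 0.26 and 0.48 ± 0.19 (limma adjusted p = 1.93e-05 and 0.0345; HACD2 with quantile normalization 0.44, adjusted p = 0.0509). In IVD against AI, 3 were higher, 2 were lower and 2 were not called, with a median of 0.09. Both lower calls, of ELOVL1 and ACSL6, were lost without centring.

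ELOVL1, an elongase of very long chain fatty acids, had the group order of LSS. Its means were -0.36 ± 0.33 (SD, n = 14) in AI, -0.88 ± 0.38 (n = 14) in IVD and 0.07 ± 0.43 (n = 15) in IVF. It was higher in IVF than in AI by 0.43 ± 0.14 (limma adjusted p = 0.0159) and than in IVD by 0.94 ± 0.14 (limma adjusted p = 5.31e-07), and lower in IVD than in AI (difference -0.52 ± 0.14, limma adjusted p = 0.00337). Without centring both calls against AI were lost (adjusted p = 0.116 and 0.304). In IVF against IVD, 3 of the 7 were higher, ACSL1 was lower and 3 were not called; the median was 0.30. Without centring, ACLY and ACSL5 lost their calls there. ACSL1, which activates long-chain fatty acids, was higher in IVD than in AI by 0.65 ± 0.19 (limma adjusted p = 0.0041).

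Of 23 genes of SREBP control listed, 6 were on the array and 4 measured; SREBF1 itself did not pass the filter on missing values. INSIG2, which retains SREBPs in the endoplasmic reticulum, was lowest in the IVF group. Its means were 1.36 ± 0.53 (SD, n = 14) in AI, 1.71 ± 0.42 (n = 14) in IVD and 0.53 ± 0.50 (n = 15) in IVF. It was lower in IVF than in AI (difference -0.82 ± 0.18, limma adjusted p = 0.000302) and than in IVD (-1.18 ± 0.18, limma adjusted p = 4.35e-07), and IVD minus AI was 0.36 ± 0.18 (limma adjusted p = 0.0983). MYLIP, a ubiquitin ligase for the LDL receptor, was higher in IVF than in AI by 1.24 ± 0.31 (limma adjusted p = 0.00147) and than in IVD by 0.84 ± 0.31 (limma adjusted p = 0.022; 0.103 without centring). MLXIPL and ERLIN2 were called in no comparison.

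With the 3 lists joined, 8 of 18 measured genes were higher and 3 lower in IVF than in AI, 3 higher and 4 lower in IVD than in AI, and 7 higher and 2 lower in IVF than in IVD. Without ACLY, LSS and FDPS the counts were 6 and 3, 3 and 3, and 4 and 2 of 15, with median differences of 0.04, -0.07 and 0.26. Over all features, limma called 19.9% higher and 17.7% lower in IVF against AI. It called 25.5% and 21% in IVD against AI, and 22.3% and 25.2% in IVF against IVD. Taken in either direction, the counts of IVD against AI and of IVF against IVD lay near or under the shares of 46.5% and 47.6%. The lists were chosen with results of these data known and have no test as lists. Without centring, 6 of the 8 higher and 2 of the 3 lower calls remained in IVF against AI, 3 of 3 and 2 of 4 in IVD against AI, and 3 of 7 and 2 of 2 in IVF against IVD. In IVF against IVD without the 3 enzymes, 1 of 4 and 2 of 2 remained. With quantile normalization, 7 of 8 and 3 of 3 calls of the 3 lists joined remained in IVF against AI. In IVD against AI 2 of 3 and 4 of 4 remained, and in IVF against IVD 7 of 7 and 2 of 2. No called gene of these 3 lists turned in sign without centring, with centring on all rows or with quantile normalization.

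**Figure D5:**
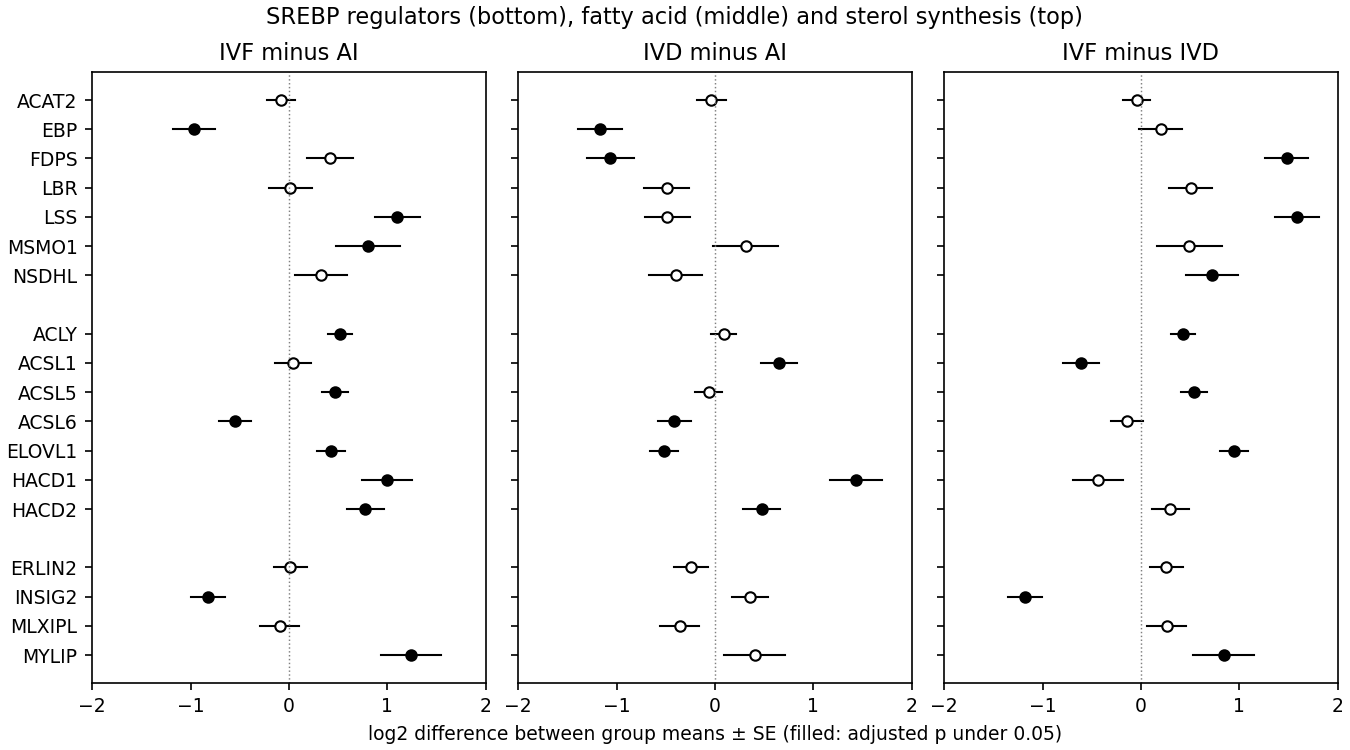
Log2 difference between group means ± SE (horizontal axis) for the 18 measured genes of sterol synthesis (top), fatty acid synthesis (middle) and SREBP control (bottom), for each pair of groups. Filled points have a limma adjusted p under 0.05; EBP lies below 0 beside LSS above it in IVF minus AI, and INSIG2 lies at -1.18 in IVF minus IVD.

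Genes downstream of FDPS and upstream of ACLY were called in both directions. Of 7 measured genes of the isoprenoid branch, 1 was higher and 2 lower in IVF than in AI. It was 1 and 1 in IVD than in AI, and 2 and 1 in IVF than in IVD. Without centring 1 call was lost in each comparison. Over all features, limma called 37.7% in IVF against AI, 46.5% in IVD against AI and 47.6% in IVF against IVD. Taken in either direction, the counts of the isoprenoid branch lay near or under these shares. GGPS1, which extends farnesyl diphosphate, had the reverse order of FDPS, with 0.21 ± 0.50 (SD, n = 14) in AI, 0.89 ± 0.35 (n = 14) in IVD and -0.29 ± 0.36 (n = 14) in IVF. It was lower in IVF than in IVD (difference -1.18 ± 0.15, limma adjusted p = 2.71e-08) and higher in IVD than in AI (0.68 ± 0.15, limma adjusted p = 0.000348). FNTB, the protein farnesyltransferase beta subunit, was higher in IVF than in AI by 0.85 ± 0.15 (limma adjusted p = 3.32e-05) and than in IVD by 1.07 ± 0.15 (limma adjusted p = 2.1e-07).

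Of 9 measured genes that supply acetyl-CoA and citrate, 2 were higher and 2 lower in IVF than in AI. It was 1 and 3 in IVD than in AI, and 3 and 1 in IVF than in IVD. Without centring 1, 1 and 2 of these calls were lost. Taken in either direction, the counts lay near the shares of all features called, 37.7%, 46.5% and 47.6% in the same order. ACSS1, which makes mitochondrial acetyl-CoA from acetate, was lower than in AI in both IVF and IVD (differences -0.75 ± 0.14 and -0.99 ± 0.14, limma adjusted p = 5.24e-05 and 3.19e-07). MDH2, mitochondrial malate dehydrogenase, was lower in IVD than in AI (-0.98 ± 0.13, limma adjusted p = 6.85e-08) and had a difference of 0.03 between IVF and AI. ME1, the cytosolic malic enzyme that makes NADPH for lipid synthesis, was higher in IVF than in AI by 0.87 ± 0.28 (limma adjusted p = 0.0141; 0.115 with quantile normalization).

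Markers of other cells also differed between the groups, and their part in the results on the enzymes was not tested. Of all features, 37.7% were called in IVF against AI, 46.5% in IVD against AI and 47.6% in IVF against IVD. Of 4 cumulus and granulosa genes, which include enzymes of steroid synthesis, 3 were higher in IVF than in AI (2 of them without centring), 1 was higher in IVD than in AI and 2 in IVF than in IVD (1 without centring), and none was lower. The list's median per embryo lay between -0.75 and 0.02 in AI, between -0.41 and 0.17 in IVD and between -0.32 and 0.26 in IVF. Of 15 trophectoderm genes, 1 was higher and 4 lower in IVF than in AI, 5 and 5 in IVD than in AI, and 3 and 7 in IVF than in IVD, with embryo medians between 1.73 and 2.83 in AI, 0.75 and 3.13 in IVD and 1.27 and 2.30 in IVF. Without centring, 0 of 1 higher and 3 of 4 lower calls remained in IVF against AI, 5 of 5 and 2 of 5 in IVD against AI, and 1 of 3 and 7 of 7 in IVF against IVD. In IVF minus IVD, the trophectoderm gene GATA2 and the granulosa gene CYP19A1 then turned in sign, from 0.22 and 0.21 to -0.03 each. The uncentred median of all features was itself 0.32 in IVD minus AI and -0.27 in IVF minus IVD. With quantile normalization, 1 of 1 higher and 4 of 4 lower trophectoderm calls remained in IVF against AI. In IVD against AI 3 of 5 and 5 of 5 remained, and in IVF against IVD 3 of 3 and 3 of 7. The trophectoderm gene PTGS2 went from 1.03 to 0.18 in IVD minus AI and from -0.91 to -0.014 in IVF minus IVD. Of 2 genes each, inner cell mass had 1 lower in IVF than in AI (lost without centring), 1 higher in IVD than in AI and 1 lower in IVF than in IVD. Blood and immune cells had 1 of 2 lower in IVD than in AI (lost without centring) and 1 higher in IVF than in IVD, and oviduct and endometrium had 1 of 2 higher in IVF than in AI and than in IVD (the latter lost without centring). With rows without a value and the dye-swap correlation of an embryo as covariates, IVF minus AI was 0.55 for ACLY, 1.09 for LSS and 0.31 for FDPS, each on the same side of the threshold as before.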

How the data were processed

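The values are log2 ratios deposited by the authors in 1 table of 16416 rows and 86 arrays; their background correction and normalization are not stated in the labels or the table. Cells without a value made up 20.1%, and array medians ran from -2.22 to 1.06. From each array the median of the 5558 rows with a value on all 86 arrays was subtracted, ratios with the embryo in Cy3 were reversed in sign, and the 2 arrays of an embryo were averaged where both had a value. Rows with at least 7 embryos per group were kept, and rows sharing 1 gene symbol were combined as their mean, which gave 6278 features. Symbols were looked up in the RefSeq table for ARS-UCD2.0, which held those of 11182 among 11196 single-symbol rows; the files name no build, so no coordinates are given, and no sequences were used here. The number of arrays limits the precision.

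Group means of the 43 embryos were compared in 1 model with limma (version 3.58.1, R version 4.3.3), two-sided, Benjamini-Hochberg adjusted over all features of a contrast, threshold 0.05; single relations were tested by two-sided permutation with 100000 resamples, or exactly with under 10 embryos in a group. Code was tested on simulated data. The members and gene lists were chosen with earlier results of these data known. Named are the 3 enzymes, all measured genes of the sterol, fatty acid and SREBP lists, up to 6 called genes of each other list, and per enzyme the 5 genes most like it and the 3 most opposed. Alternatives covered centring, normalization, dye, row filter, rows, clones, embryo number, IVD embryos 12_1 to 12_4, groups fitted, dye bias, missing rows and each embryo left out; those on clones, on missing rows in limma, and on the within-embryo differences were chosen after seeing the data.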

Additional observations from a re-analysis of the deposited data

How the results depend on the processing

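Beside leaving out single embryos, 212 of 244 recomputed values were counted as unchanged. For differences and correlations this means the same direction and the same side of the threshold. Some alternatives could not move an estimate, so this number is no measure of robustness. In IVF minus AI, 3 of them left the differences of the enzymes as they were, and only adjusted p-values could change. These were the row filter at 2 embryos per group, averaging IVD embryos 12_1 to 12_4, and fitting only the 2 groups compared. The 244 also hold counts of called features and pathway genes, for which a moderate change in number was counted as unchanged. In IVF minus AI this held for 1684 features against 2365 with the embryo number as a replicate block. It also held for 8 pathway genes against 11 without centring. The cause of the exceptions was not tested, except that fewer features were tested where rows had to be measured on every array.

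Row 1 and row 2 of ACLY, the spots of clone 1, gave 0.29 and 0.31 for IVF minus AI and -0.092 and -0.13 for IVD minus AI; clone 1 as their mean gave 0.30 and -0.11, and row 3 gave 0.33 for IVD minus AI, which passed. Averaging IVD embryos 12_1 to 12_4 turned ACLY in IVD minus AI to -0.0031 and took ACLY minus LSS to 0.50. Embryo numbers that occur in several groups only name embryos: of 21 same-numbered pairs, 3 had a correlation of deviations over 0.1 (range -0.187 to 0.213), and 3 of 30 embryos correlated best with their own number. With the number as a replicate block (30 embryos, 13 numbers), FDPS in IVF minus AI was 0.73 and passed, and ACLY in IVD minus AI was -0.053; no other call on the enzymes changed.

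ACLY in IVF minus IVD was 0.18 without centring and 0.23 in Cy5 alone. LSS in IVD minus AI passed with quantile normalization (-0.56), in Cy5 alone (-0.62) and with AI and IVD alone (-0.48). In Cy5 alone, ACLY minus LSS between IVF and AI was -0.57, LSS minus FDPS between IVF and IVD -0.14 and ACLY minus FDPS between IVF and AI -0.00055; in Cy3 alone, ACLY minus LSS between IVD and AI was 0.36. The correlation of LSS with FDPS was 0.331 across dyes, 0.473 without the 2 farthest embryos, 0.294 in IVD and 0.395 in IVF. That of ACLY with LSS was 0.431 without centring and -0.155 in IVD, and that of ACLY with FDPS -0.0443 across dyes and -0.107 in IVD.

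Calls over all features between IVF and AI fell from 2365 to 1325 without centring and to 1571 in rows measured on every array, where LSS and FDPS have no value. In those rows, IVD minus AI had 1770 calls against 2921 and IVF minus IVD 1880 against 2986. Without centring, 85.3% of calls were higher in IVD than in AI against 54.9%, and 17.5% higher in IVF than in IVD against 47.0%; in Cy3 alone the latter was 36.2% and in Cy5 alone 57.2%. Leaving out each embryo moved FDPS in IVF minus AI between 0.29 and 0.58, with the threshold passed without AI embryo 17 alone; no other difference of the enzymes changed its side of the threshold.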

Other observations

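Genes of fatty acid oxidation, the breakdown of the products that ACLY feeds, were called lower more often than higher against AI embryos. Of 24 listed, 13 were on the array and 11 measured. In IVF against AI, 1 was higher and 5 were lower (median difference -0.43), and in IVD against AI none was higher and 6 were lower (median -0.48), beside shares of all features called lower of 17.7% and 21%. Electron transfer flavoprotein beta (ETFB), which takes electrons from the acyl-CoA dehydrogenases, had means of 1.14 ± 0.39 (SD, n = 14) in AI, 0.12 ± 0.30 (n = 14) in IVD and 0.11 ± 0.46 (n = 15) in IVF, with limma adjusted p = 5.05e-07 for IVF and 2.98e-07 for IVD against AI. ACAA1, a peroxisomal thiolase, differed from AI by -0.97 ± 0.16 in IVF and -1.25 ± 0.16 in IVD (limma adjusted p = 6.16e-06 and 2.6e-08). Between IVF and IVD, 3 were higher and 1 lower (median 0.18). Without centring, 0 of 1 higher and 4 of 5 lower calls remained in IVF against AI, 3 of 6 lower calls in IVD against AI (ACADVL, CPT2 and ETFA were lost), and 1 of 3 and 1 of 1 in IVF against IVD. With quantile normalization, 0 of 1 higher and 5 of 5 lower calls remained in IVF against AI. In IVD against AI 6 of 6 lower calls remained, and in IVF against IVD 3 of 3 and 1 of 1. Both comparisons with AI share its embryos.

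Genes of lipid uptake, storage and export were called in both directions. Of all features, 37.7% were called in IVF against AI, 46.5% in IVD against AI and 47.6% in IVF against IVD. Of 13 measured genes, 3 were higher and 4 lower in IVF than in AI, 5 and 3 in IVD than in AI, and 2 and 6 in IVF than in IVD. Without centring, 1 of 3 and 2 of 4 of these calls remained in IVF against AI, 5 of 5 and 0 of 3 in IVD against AI, and 0 of 2 and 6 of 6 in IVF against IVD. With quantile normalization, 3 of 3 and 3 of 4 remained in IVF against AI. In IVD against AI 5 of 5 and 3 of 3 remained, and in IVF against IVD 2 of 2 and 4 of 6. PLIN2, the coat protein of lipid droplets, had means of 1.02 ± 0.31 (SD, n = 14) in AI, 1.86 ± 0.37 (n = 14) in IVD and 1.54 ± 0.39 (n = 15) in IVF. ABCA1, the cholesterol exporter, had means of 1.50 ± 0.79 (n = 14) in AI, 0.96 ± 0.35 (n = 14) in IVD and 0.16 ± 0.64 (n = 15) in IVF, and IVF minus AI was -1.34 ± 0.22 (limma adjusted p = 8.64e-06). SOAT1, which esterifies cholesterol, had means of 2.26 ± 0.28 (n = 13) in AI, 2.95 ± 0.30 in IVD and 1.94 ± 0.42 in IVF.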
